A study of Mus musculus with 4 samples.

Results

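The transcripts described here are those of 4 chemokine ligands of the CXC family (Cxcl9, Cxcl10, Cxcl16 and Cxcl13) and of 3 receptors that read them (Cxcr3, Cxcr6 and Cxcr5), 7 genes taken by name out of 31053 features in the count tables. They were followed by immune cell class in 4 single-cell RNA libraries of CD45+ cells from C57BL/6 mice, 1 library per group. The groups were Rab37 KO tumor, WT tumor, Rab37 KO normal lung and WT normal lung. KO means loss of Rab37, a small GTPase of vesicle traffic. Tumors came from injected LLC cells, a Lewis lung carcinoma line of C57BL/6 origin, and the study's design text gives Matrigel injection as the counterpart, with collection at day 14. The sort used CD45, the common leukocyte surface protein, and live cells. How many animals each library pooled, their age, and the Rab37 allele were not given in the sources used here.

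Chemokines are small secreted proteins that bind G protein-coupled receptors and draw leukocytes along a gradient. CXCL9 and CXCL10 are made by cells exposed to interferon and bind CXCR3, the receptor of activated CD8 and type 1 helper T cells and of many NK cells. CXCL16 is made with a membrane anchor, from which ADAM10 and ADAM17 can release it, and binds CXCR6, a receptor of tissue-resident and effector T cells and of innate lymphoid cells. CXCL13 binds CXCR5, which brings B cells and follicular helper T cells into follicles. In tumors these pairs are known for deciding where lymphocytes settle.

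In normal lung the ligands lay mainly in macrophage-like, alveolar macrophage-like, dendritic cell-like and fibroblast-like cells, and most UMIs of each receptor were in lymphocytes. Macrophage-like cells held Cxcl9, Cxcl10, Cxcl16 and, in normal lung, Cxcl13, and conventional dendritic cell-like cells of normal lung had more Cxcl16. Per UMI of the class, Cxcr3 was high in T-like and NK-like cells, Cxcr6 in T-like and ILC2-like cells, and Cxcr5 in B-like cells. In the tumors, where lymphocytes were few, other cells held a large part of the few receptor UMIs: T-like cells had 27.7% of Cxcr3 UMIs in Rab37 KO tumor, as did the unnamed cluster 4, and 30.4% in WT tumor, where macrophage-like cells had 33.9%. Cxcl13 was the ligand most unlike between tissues: 824 UMIs (unique molecular identifiers, counted transcripts) in Rab37 KO normal lung macrophage-like cells and 1009 in WT normal lung ones, against 0 and 1 in the corresponding tumor cells.

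**Figure D1:**
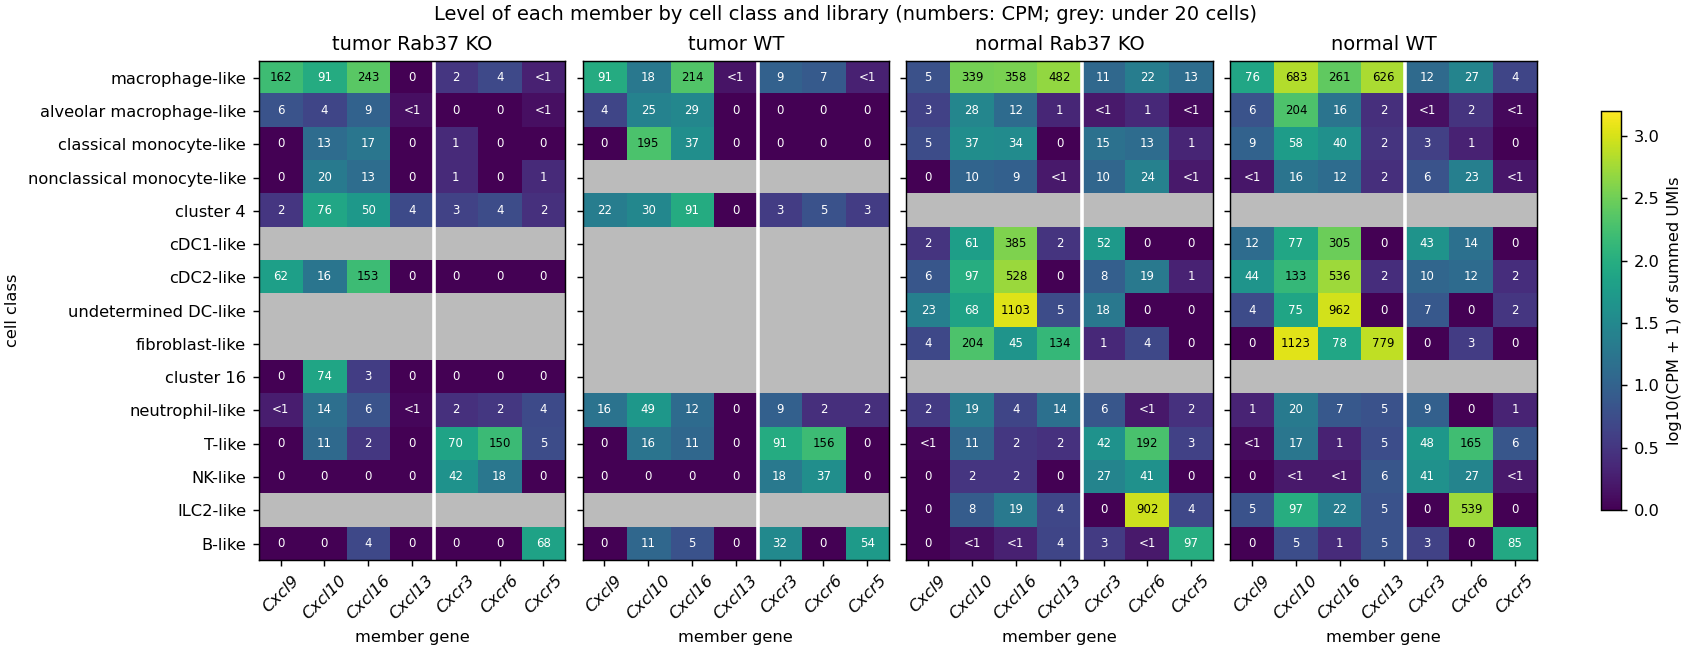
Level of each gene (columns, ligands left of the white line and receptors right of it) in each cell class (rows) for the 4 libraries, as CPM (a gene's UMIs scaled to a common class total), with colour on a log10(CPM + 1) scale and grey for classes of under 20 cells. Ligands are high mainly in the macrophage-like, dendritic cell-like and fibroblast-like rows, Cxcr6 reaches 902 CPM in ILC2-like cells of Rab37 KO normal lung, and Cxcr5 is highest in the B-like row.

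Of the 7 genes, 3 lie on mouse chromosome 5 of the mm10 build. Cxcl9 is at chromosome 5, 92321347 to 92328079 on the minus strand, and Cxcl10 at 92346638 to 92348889 on the same strand, 18558 bases apart. Cxcl13 is at chromosome 5, 95956951 to 95961068 on the plus strand. Cxcl16 is at chromosome 11, 70453983 to 70459984 on the minus strand. Cxcr3 is at chromosome X, 101731535 to 101734269 on the minus strand. Cxcr6 is at chromosome 9, 123806475 to 123811760 on the plus strand, and Cxcr5 at chromosome 9, 44511787 to 44561877 on the minus strand. All are annotated as protein-coding, and each symbol stood for 1 feature. Cxcl11, the other CXCR3 ligand, was not analysed here.

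The promoters of the neighbouring Cxcl9 and Cxcl10 are shown because both are CXCR3 ligands of interferon-exposed cells and yet differed in which cells held them. Each is the 250 bases before the gene's start in RefSeq (GRCm38.p6), 5′ to 3′ on the gene's strand, Cxcl9 at chr5:92328080-92328329 and Cxcl10 at chr5:92348890-92349139, both on the minus strand. Capitals mark matches to an interferon-stimulated response element (ISRE, searched as GAAA, any 2 bases and GAAA) or an NF-kB element (searched as GGGAA, any base and TTCC), on either strand.
Cxcl9 promoter: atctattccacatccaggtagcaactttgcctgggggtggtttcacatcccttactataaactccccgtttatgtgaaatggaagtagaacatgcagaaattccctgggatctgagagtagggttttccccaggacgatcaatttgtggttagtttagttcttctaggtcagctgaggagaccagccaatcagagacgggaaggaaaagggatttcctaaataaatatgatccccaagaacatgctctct
Cxcl10 promoter: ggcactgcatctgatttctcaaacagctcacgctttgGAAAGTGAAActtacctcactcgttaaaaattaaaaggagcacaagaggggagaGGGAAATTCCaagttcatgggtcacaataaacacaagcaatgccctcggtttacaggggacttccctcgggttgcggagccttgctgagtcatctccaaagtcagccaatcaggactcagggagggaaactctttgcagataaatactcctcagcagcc
The Cxcl10 window held 1 ISRE match, GAAAGTGAAA, beginning 213 bases before the gene's start, and 1 NF-kB match, GGGAAATTCC, beginning 159 bases before it. The Cxcl9 window held no match to either, and neither held the interferon-gamma activated site searched as TTCNNNGAA. Of 32851 mouse promoter windows of that length, 2.98% held the ISRE letters, 7.02% the activated site, 0.283% the NF-kB letters, and 4 windows (0.0122%) both ISRE and NF-kB. The windows of Cxcl13, Cxcr3 and Cxcr6 held none of the 3 motifs, and Cxcl16 and Cxcr5 were not matched in the table (5 of 7 genes were). A match describes letters only.

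The cells kept (200 genes or more, a mitochondrial share of no more than 10%, doublets removed) numbered 2725, 644, 4646 and 5063 in Rab37 KO tumor, WT tumor, Rab37 KO normal lung and WT normal lung, with 30053499, 5183771, 33771330 and 34369993 UMIs. The targeted gene was checked first: Rab37 had 8 UMIs in Rab37 KO tumor against 24 in WT tumor, and 13 in Rab37 KO normal lung against 292 in WT normal lung. Pairs of libraries shared at most 8 cell barcodes. The tumor libraries stood apart in sex: outside cluster 16, 1660 of 2681 Rab37 KO tumor cells held only Y-linked UMIs and 1 held only Xist, whereas 408 of 632 WT tumor cells held only Xist and 0 held only Y-linked UMIs. Genotype cannot be told apart from sex in the tumor comparison. Each normal lung library held cells of both kinds (1543 Xist only and 1614 Y only in Rab37 KO, 2020 and 1481 in WT), so there the comparison was repeated within each kind. Tumor and normal lung libraries carry different software versions in their file headers, so tissue and that version cannot be told apart. Some cells stayed unnamed: cluster 4 (549 cells in Rab37 KO tumor, 40 in WT tumor, 2 and 1 in normal lung), led by Arg1, Ppbp and Pf4, and cluster 16 (44 and 12 tumor cells, none in normal lung), led by Rhox5, Col3a1 and Cald1, are given by number.

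With 1 library per group no test across animals is possible. Each level below is a CPM of the UMIs summed over a class, each ratio has an exact 95% conditional binomial interval that covers counting error only, and a difference is called where it reached 1.5-fold with at least 10 UMIs over both libraries. The share of all measured genes that met the same rule stands beside the first such count.

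Cxcl9, which recruits CXCR3-bearing T cells, lay mostly in macrophage-like cells in the tumors and was spread over more classes in normal lung. Macrophage-like cells (128 in Rab37 KO tumor, 140 in WT tumor, 140 in Rab37 KO normal lung and 133 in WT normal lung; led by C1qa, C1qc and Apoe) had 162 CPM in Rab37 KO tumor (508 UMIs), 91.2 in WT tumor (194), 5.27 in Rab37 KO normal lung (9) and 76.2 in WT normal lung (123). They held 85.8% of all Cxcl9 UMIs in the Rab37 KO tumor library, 88.2% in WT tumor, 12.9% in Rab37 KO normal lung and 45.6% in WT normal lung. Alveolar macrophage-like cells held 41.4% of the 70 UMIs in Rab37 KO normal lung and 23.0% of the 270 in WT normal lung. Dendritic cell-like cells of no assigned subtype held 14.3% in Rab37 KO normal lung. T-like cells, which should lack the gene, had at most 0.258 CPM.

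Very few cells carried it. A Cxcl9 UMI was seen in 11 of 128 macrophage-like cells of Rab37 KO tumor, 12 of 140 of WT tumor, 5 of 140 of Rab37 KO normal lung and 3 of 133 of WT normal lung. One cell held 171 of the 508 UMIs in Rab37 KO tumor, 94 of 194 in WT tumor and 115 of 123 in WT normal lung. After each cell was thinned to 1500 UMIs, 5.04%, 5.26%, 0% and 0.769% of macrophage-like cells held a Cxcl9 UMI in the same order of libraries (6 of 119, 7 of 133, 0 of 133 and 1 of 130 cells). Both tumor shares were above both normal lung shares, but the intervals overlapped (1.87% to 10.6% in Rab37 KO tumor and 0% to 2.73% in Rab37 KO normal lung), and 0 of 133 cells allows a share of up to 2.26%.

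The genotype comparison of Cxcl9 rested on those few cells. In tumors the Rab37 KO over WT ratio was 1.77 (1.5 to 2.10), one of 2 ligands called higher there with Cxcl10, in a class where 27.3% of 10658 genes were called higher and 9.80% lower. The ratio turned to 0.718 with at least 500 genes per cell, to 0.914 when each cell was classed by its own markers, and to 0.523 when cluster 4, where Cxcl9 had 2.24 CPM in Rab37 KO and 21.5 in WT tumor, was pooled in. In normal lung the ratio was 0.0691 (0.0309 to 0.136), against 10.7% of 10376 genes called higher and 9.72% lower. Without the top cell of each library it was 0.712. Tumor over normal lung was 30.7 (16.1 to 67.6) in Rab37 KO, where 22.0% of 10838 genes were called higher, and 1.20 (0.95 to 1.51) in WT. The WT value had no stable direction: it was 9.48 without the top cells and 10.96 at a coarser clustering, but 0.601 with a 20% mitochondrial limit and 0.446 in Xist-only cells.

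Cxcl9 was also present in type 2 conventional dendritic cell-like (cDC2-like) cells. Their level was 62.5 CPM in Rab37 KO tumor, with all 42 UMIs in 1 of 47 cells, 26.1 in WT tumor (18 cells), 6.21 in Rab37 KO normal lung and 43.9 in WT normal lung (55 UMIs in 7 of 112 cells). The highest tumor value is thus a single cell's.

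Cxcl10 was spread over several sources. Macrophage-like cells had 90.8 CPM in Rab37 KO tumor (285 UMIs in 31 cells), 18.3 in WT tumor (39 UMIs in 10 cells), 339 in Rab37 KO normal lung (579 UMIs in 51 cells) and 683 in WT normal lung (1102 UMIs in 62 cells). Normal lung thus stood above tumor in both genotypes, the opposite order to Cxcl9 in Rab37 KO. Thinned to equal depth, 5.04% of macrophage-like cells held a Cxcl10 UMI in Rab37 KO tumor, 3.76% in WT tumor, 19.6% in Rab37 KO normal lung and 29.2% in WT normal lung. T-like cells, taken as the background, had 0%, 0%, 1.18% and 1.91%. They were not free of Cxcl10 in normal lung. Their Foxp3-positive cells had 72.3 CPM in Rab37 KO (15 UMIs in 7 of 39 cells) and 119 in WT (21 UMIs in 7 of 37 cells). CD8 cells had 7.75 CPM in Rab37 KO and 8.64 in WT normal lung.

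**Figure D2:**
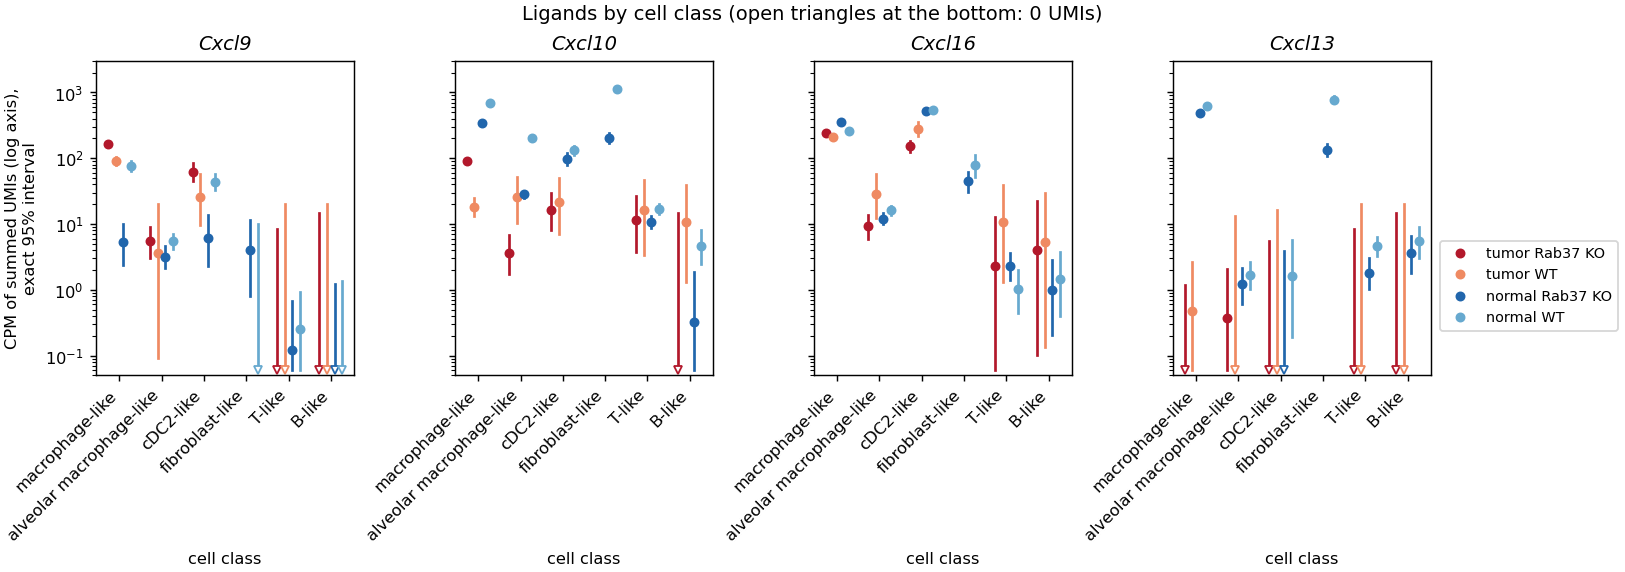
CPM of each ligand (log axis) in 6 cell classes for the 4 libraries, with exact 95% Poisson intervals as bars and open triangles at the axis for 0 UMIs. The fewest cells behind a point are the 18 cDC2-like cells of WT tumor, and fibroblast-like cells of the tumors are left out. Cxcl9 in macrophage-like cells is highest in Rab37 KO tumor at 162 CPM, whereas Cxcl10 and Cxcl13 lie far higher in the normal lung libraries.

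Tumor macrophage-like Cxcl10 was 0.268 times (0.232 to 0.309) the normal lung level in Rab37 KO, where 22.4% of genes were called lower, and 0.0268 times (0.0190 to 0.0369) in WT, where 31.9% of 10402 genes were. Every alternative run kept both directions. Between tumor genotypes it was 4.95 times (3.53 to 7.11) higher in Rab37 KO, between 3.01 and 10.8 over the alternatives. Few cells held most of these UMIs: 3 cells had 168 of 285 in Rab37 KO tumor, and 3 had 25 of 39 in WT tumor. At equal depth a Cxcl10 UMI was seen in 6 of 119 macrophage-like cells of Rab37 KO tumor and 5 of 133 of WT tumor. The summed neutrophil markers in these cells also differed, at 16008 CPM in Rab37 KO tumor against 7916 in WT tumor (10 of 10 markers detected in both), and their part in the result was not tested beyond leaving out cells with at least 1% of such UMIs, after which the ratio stayed within the interval above.

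Outside named classes, Cxcl10 in Rab37 KO tumor lay mostly in cluster 4, with 76.4 CPM (716 UMIs in 145 of 549 cells) against 29.6 CPM in WT tumor (11 UMIs in 5 of 40 cells), a ratio of 2.58 (1.43 to 5.20) where 15.9% of 11234 genes were called higher. Cluster 4 held 50.1% of the library's Cxcl10 UMIs, macrophage-like cells 19.9% and cluster 16 18.8%. In neutrophil-like cells the order was reversed, at 13.8 CPM in Rab37 KO tumor and 48.6 in WT tumor (0.283; 0.185 to 0.447), where 16.6% of 9462 genes were called lower.

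**Figure D3:**
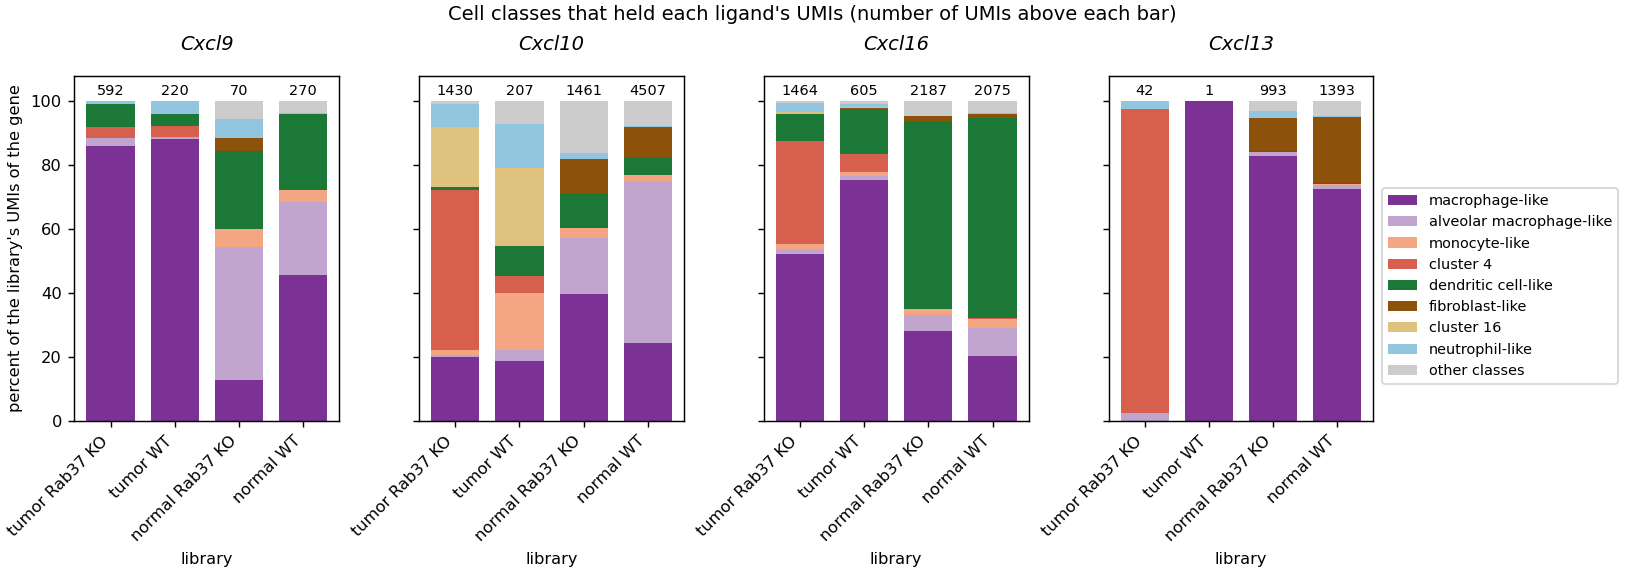
Percent of each library's UMIs of a ligand (bars, stacked to 100%) held by each group of cells, with the number of UMIs above each bar. Alveolar macrophage-like cells hold 50.6% of Cxcl10 in WT normal lung, cluster 4 holds 50.1% in Rab37 KO tumor, and dendritic cell-like cells take most Cxcl16 of normal lung.

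In WT normal lung 50.6% of Cxcl10 UMIs were in alveolar macrophage-like cells (phagocytes that live on the airway side of the lung), which were numerous but had a lower CPM than macrophage-like cells. Their level was 28.1 CPM in Rab37 KO normal lung (256 UMIs in 36 of 678 cells) and 204 in WT normal lung (2283 UMIs in 144 of 962 cells), a ratio of 0.138 (0.121 to 0.157) in a class where 6.17% of 11757 genes were called lower. Macrophage-like cells had a ratio of 0.496 (0.448 to 0.549). Fibroblast-like cells, which were present past the CD45 gate (83 in Rab37 KO and 41 in WT normal lung), had 204 CPM (154 UMIs) and 1123 CPM (418 UMIs), a ratio of 0.181 (0.150 to 0.219) where 17.9% of 8892 genes were called lower.

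This Cxcl10 difference in normal lung stood in cells with Xist only and not in cells with Y-linked UMIs only. Among Xist-only alveolar macrophage-like cells there were 29 UMIs in 9 of 246 Rab37 KO cells (8.53 CPM) and 1889 UMIs in 99 of 446 WT cells (375 CPM), a ratio of 0.0227 (0.0152 to 0.0327) where 7.22% of 10700 genes were called lower. Among Y-only cells there were 217 UMIs in 23 of 335 Rab37 KO cells (47.1 CPM) and 183 UMIs in 30 of 404 WT cells (37.9 CPM), a ratio of 1.24 (1.02 to 1.52). The WT Xist-only cells were thus the high set and the other 3 sets lay within 8.53 to 47.1 CPM.

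The same split appeared in other classes. In macrophage-like cells the Rab37 KO over WT ratio was 0.136 with Xist only (112 against 718 UMIs) and 1.93 with Y only (277 against 122). In fibroblast-like cells it was 0.0380 with Xist only (23 against 381 UMIs) and 1.09 with Y only (92 against 31). In cDC2-like cells it was 0.232 and 1.09, and in T-like cells, taken as the background above, 0.298 and 1.05. Whether each kind of cell in a library came from 1 animal or more was not given, and the difference between the 2 kinds was not tested.

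**Figure D4:**
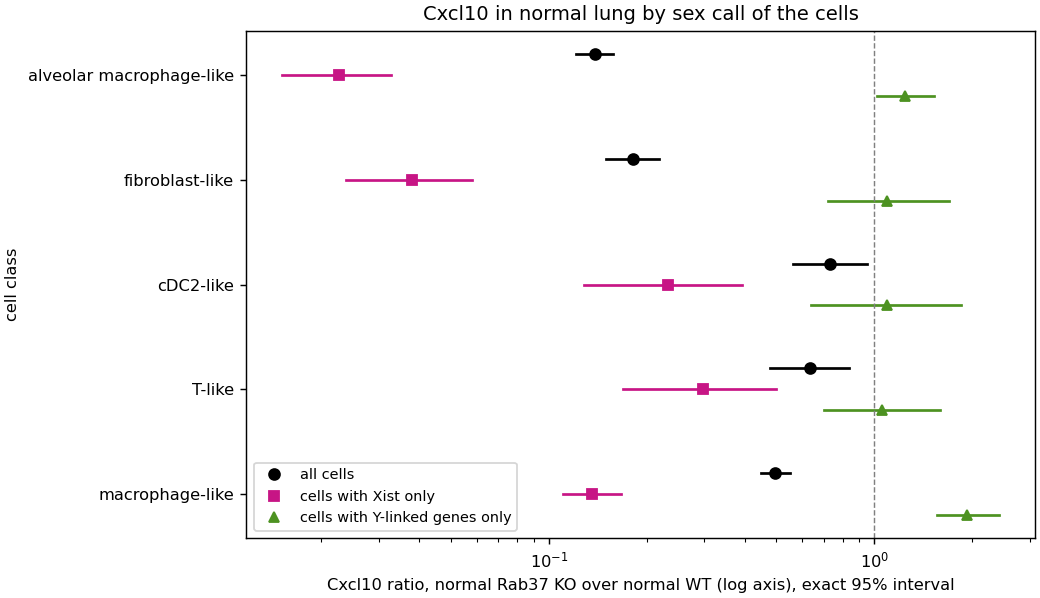
Ratio of Cxcl10 CPM, Rab37 KO over WT normal lung (log axis, exact 95% intervals as bars), in 5 cell classes for all cells, for cells with Xist UMIs only and for cells with Y-linked UMIs only; the dashed line marks a ratio of 1. The Xist-only ratios lie between 0.0227 and 0.298, and the Y-only ratios between 1.05 and 1.93.

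The interferon-gamma response genes were set beside Cxcl10. Of 14 such genes on the list (guanylate-binding proteins, immunity-related GTPases, antigen-processing genes and others, Cxcl9 and Cxcl10 left out), 12 were measured in macrophage-like cells of normal lung, with 1 called higher and 2 lower in Rab37 KO. Their median log2 ratio was −0.03, against 0.04 over all genes. In Xist-only alveolar macrophage-like cells 0 of 10 measured genes were called in either direction, where 5.15% of all genes were called higher, with a median of 0.11 against 0.01. Macrophage-like cells split by sex call differed from this. With Xist only (54 Rab37 KO and 50 WT cells) the median over 11 measured genes was −0.20, against 0.03 over all genes. With Y only (39 and 33 cells) the median over 9 measured genes was 0.83, against −0.01. These medians leaned as Cxcl10 did in those cells, but they rest on few genes, cells and UMIs. The lean was not tested. Ciita was higher with both Xist only (1.70) and Y only (1.78). Irf1, an interferon-gamma signaling gene outside this list, went against Cxcl10 in macrophage-like cells, at 1.71 with Xist only and 0.634 with Y only. In Xist-only alveolar macrophage-like cells it went with Cxcl10, at 0.312 (98 against 465 UMIs). Ifng, under 50 CPM, was at 0.308 there (5 against 24 UMIs). Of the 8 signaling genes these 2 were called lower and 1 higher, where 7.22% and 5.15% of 10700 genes were. In tumor macrophage-like cells 0 of 13 measured response genes were called higher and 3 lower in Rab37 KO over WT, with a median of −0.20 against 0.20. Those 3, all under 50 CPM, were Ciita, the master regulator of MHC class II, at 0.256, and the guanylate-binding proteins Gbp5 at 0.469 and Gbp4 at 0.559. Cd274, which encodes PD-L1, had 53.2 CPM in Rab37 KO tumor and 77.1 in WT tumor (ratio 0.690), and the immunoproteasome subunit gene Psmb9 had 80.2 and 112 CPM (0.717).

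Between tissues the same list was mixed in macrophage-like cells: 4 of 13 were called higher and 2 lower in Rab37 KO tumor over Rab37 KO normal lung, and 4 higher and 3 lower in WT tumor over WT normal lung, where 18.3% of all genes were called higher. The genes that carry the interferon-gamma signal were more often called lower than higher in tumor. In monocyte and macrophage-like cells together 5 of 8 were called lower and 0 higher in each genotype, where 17.7% of 11531 genes in Rab37 KO and 28.5% of 11103 in WT were called lower, and 22.6% and 21.2% higher. The make-up of that pool differed: macrophage-like cells were 128 of 293 cells in Rab37 KO tumor against 140 of 485 in Rab37 KO normal lung, and 140 of 185 in WT tumor against 133 of 554 in WT normal lung. Within macrophage-like cells alone 5 of 8 were called lower and 1 higher in Rab37 KO, where 22.4% of 10838 genes were called lower. In WT 3 of 8 were called lower and 0 higher, near the 31.9% of 10402 genes called lower there. In macrophage-like cells Irf1, a transcription factor induced by interferon, was at 49.0 CPM in Rab37 KO tumor against 110.6 in Rab37 KO normal lung (0.443). In WT it was at 38.1 CPM in tumor against 96.7 in normal lung (0.394). Ifngr1, the ligand-binding receptor chain, was at 209.8 against 382 CPM in Rab37 KO (0.550) and 224 against 327 CPM in WT (0.687, under the line).

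Cxcl16, the CXCR6 ligand, was spread over many cells. Macrophage-like cells had 243 CPM in Rab37 KO tumor (763 UMIs in 105 of 128 cells), 214 in WT tumor (455 in 106 of 140), 358 in Rab37 KO normal lung (612 in 116 of 140) and 261 in WT normal lung (421 in 109 of 133). No single cell held more than 5.07% of the UMIs, unlike Cxcl9. The genotype ratio was 1.14 (1.01 to 1.28) in tumors and 1.37 (1.21 to 1.56) in normal lung, under the 1.5-fold line in both. Pooled with cluster 4, which had 50.3 CPM in Rab37 KO tumor and 91.4 in WT tumor, the tumor ratio was 0.504. T-like, B-like and neutrophil-like cells had between 0.987 and 12.2 CPM.

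Conventional dendritic cell-like cells of normal lung had more Cxcl16 than macrophage-like cells, whereas in Rab37 KO tumor the cDC2-like level was below the macrophage-like one. cDC2-like cells had 153 CPM in Rab37 KO tumor (103 UMIs), 278 in WT tumor (64), 528 in Rab37 KO normal lung (510) and 536 in WT normal lung (672). Both tumor levels lay below both normal lung levels. The class was made of different clusters in these libraries: cluster 10.0 held 32 of the 47 cells in Rab37 KO tumor, 3 of 18 in WT tumor and 0 in normal lung, and Cxcl16 is a leading gene of cluster 10.5, one of those that held the normal lung cells. Other cDC2-like clusters held cells of both tissues, but no comparison within a cluster is given. A lower level per cell was thus not separated from another mix of cDC2-like cells. Tumor over normal lung was 0.290 (0.232 to 0.359) in Rab37 KO, where 24.7% of 7953 genes were called lower, and 0.520 (0.396 to 0.672) in WT, where 20.1% of 7934 were. Rab37 KO over WT was 0.550 (0.399 to 0.764) in tumor, where 24.6% of 6461 genes were called lower, but 0.814 after thinning to 1500 UMIs. A dendritic cell-like cluster of normal lung that could not be assigned to a subtype, with Ccl17 and Il12b first, had 1103 CPM in Rab37 KO (39 cells) and 962 in WT (43 cells). Type 1 (cDC1-like) cells had 385 and 305 CPM there.

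Of 4 genes listed for chemokine processing or scavenging, 2 were called higher in Rab37 KO over WT tumor macrophage-like cells, where 27.3% of 10658 genes were. These were Dpp4, a protease that trims chemokines, with 18 against 6 UMIs, and Ackr3, a scavenging receptor, with 18 against 1. Both rest on few UMIs, and whether Ackr3 takes up any of the ligands described here was not examined. The CXCL16 sheddase genes Adam10 (87.6 CPM in Rab37 KO tumor and 71.5 in WT tumor, ratio 1.23) and Adam17 (120.0 and 91.2 CPM, ratio 1.32) stayed under the line.

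Cxcl13, which organises B cell follicles, was nearly absent from tumor in the macrophage-like class. It had 0 UMIs in 128 Rab37 KO tumor cells, 1 UMI in 140 WT tumor cells (0.470 CPM), 824 UMIs in 38 of 140 Rab37 KO normal lung cells (482 CPM) and 1009 UMIs in 33 of 133 WT normal lung cells (626 CPM). Set at the floor of 3 UMIs in the Rab37 KO tumor library, the level was at least 505-fold lower in tumor than in normal lung of Rab37 KO, and the WT ratio was 0.000752 (1.90e-05 to 0.00420). In Rab37 KO tumor the library's 42 Cxcl13 UMIs were nearly all in cluster 4, 39 of them in 1 cell. Few cells held most of the normal lung UMIs: 3 cells had 484 of the 824 in Rab37 KO and 3 had 554 of the 1009 in WT. All tumor macrophage-like cells were in cluster 9, as were most of normal lung. Cluster 5 held 6 Rab37 KO and 15 WT normal lung cells and 0 tumor cells. Its part in the tissue contrast was not tested. Cxcl13 is among the genes that lead clusters 9 and 5. The members were left out of the genes used for clustering and for class scores, so Cxcl13 did not define the class. Only its contrast between libraries is described.

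The normal lung genotype ratio of Cxcl13 in macrophage-like cells was 0.771 (0.702 to 0.846), under the line. With Xist only it was 0.182 (90 against 431 UMIs) and with Y only 0.891 (265 against 253). Fibroblast-like cells had 134 CPM in Rab37 KO (101 UMIs, 85.1% of them in 1 cell) and 779 in WT (290 UMIs in 10 of 41 cells), a ratio of 0.171 (0.135 to 0.216). Within Xist-only fibroblast-like cells there were 11 against 279 UMIs, and within Y-only ones 90 against 2.

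Among receptors, Cxcr3 was highest in tumor T-like cells. T-like cells had 70.5 CPM in Rab37 KO tumor (31 UMIs in 21 of 78 cells), 91.4 in WT tumor (17 UMIs in 13 of 52), 42.1 in Rab37 KO normal lung (346 UMIs in 211 of 1442) and 47.9 in WT normal lung (372 UMIs in 242 of 1580). Both tumor levels lay above both normal lung levels. At equal depth 11.7%, 17.6%, 5.43% and 6.68% of T-like cells held a Cxcr3 UMI in those libraries, against 0.158%, 1.22%, 0.926% and 0.556% of neutrophil-like cells, the background.

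Tumor over normal lung was 1.67 (1.12 to 2.42) in Rab37 KO, where 19.6% of 10624 genes were called higher, and 1.91 (1.10 to 3.1) in WT, where 21.5% of 10521 were; Cxcr3 was the only one of the 3 receptors called higher. The Rab37 KO value rests on 31 UMIs: it was 1.05 with a 20% mitochondrial limit or with doublets kept, and 0.872 with the clusters of the class weighted alike. The WT value rests on 17 UMIs and lay between 1.23 and 2.45 over the alternatives, under 1.5-fold in 6 of them. Rab37 KO over WT was 0.771 (0.414 to 1.49) in tumor and 0.880 (0.758 to 1.02) in normal lung. T-like cells of the tumors also carried other cells' transcripts. Summed neutrophil markers were at 227 CPM in Rab37 KO tumor, 2246 in WT tumor, 42.8 in Rab37 KO normal lung and 30.0 in WT normal lung, and summed macrophage markers at 266, 1553, 41.1 and 51.0 CPM; their part in the results was not tested.

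NK-like cells had Cxcr3 at 42.2, 18.4, 27.1 and 40.7 CPM in Rab37 KO tumor, WT tumor, Rab37 KO normal lung and WT normal lung (12, 2, 38 and 60 UMIs), with intervals that overlap within each tissue. cDC1-like cells of normal lung held 52.5 CPM in Rab37 KO and 42.8 in WT, close to the T-like level. Among T-like cells of normal lung gated on single transcripts, which depends on depth, Cxcr3 was at 71.4 CPM in Rab37 KO and 80.5 in WT CD4 cells, at 59.9 and 89.2 in gamma-delta cells, at 57.8 and 51.1 in Foxp3-positive cells, and lowest at 30.1 and 28.4 in CD8 cells.

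Genes that accompany Cxcr3 in activated lymphocytes were higher in Rab37 KO tumor T-like cells than in Rab37 KO normal lung ones: 7 of 8 were called higher and 0 lower. Different clusters held these cells: cluster 21, led by Lef1 and Dapl1, had 12 of the 78 Rab37 KO tumor cells against 688 of 1442 in Rab37 KO normal lung, and cluster 12 had 41 against 419. The part of this mix in the list, and in that of the circulating lymphocyte genes, was not tested. Their median log2 ratio was 1.29, against 0.27 over all genes. Genes at 0 in one library enter these medians at the floor of 3 UMIs, which raises tumor values in small classes. Gzmb, a cytotoxic granule protease, had 246 CPM in Rab37 KO tumor and 46.3 in Rab37 KO normal lung (5.30; 4.24 to 6.58). Eomes, a transcription factor of cytotoxic cells, had 68.2 CPM in Rab37 KO tumor and 31.4 in Rab37 KO normal lung (2.17; 1.43 to 3.17). In WT tumor over WT normal lung 1 of 8 was called higher and 1 lower, with Gzmb at 64.5 and 51.0 CPM (1.26; 0.648 to 2.23). Whether the genotypes differ in this was not tested.

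Genes of circulating lymphocytes leaned the other way. Of 9, 5 were called lower and 0 higher in Rab37 KO tumor over normal lung (median −0.66), and 3 lower and 1 higher in WT (median −0.40, against 0.54 over all genes), where 11.6% and 10.5% of genes were called lower. Ccr7, the lymph node homing receptor, had 93.2 CPM in Rab37 KO tumor and 362 in Rab37 KO normal lung (0.257; 0.184 to 0.350).

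Interferon-gamma response genes, which in macrophage-like cells were mixed, were mostly higher in tumor T-like cells: 7 of 11 were called higher and 1 lower in Rab37 KO, and 9 higher and 0 lower in WT. Of all genes 19.6% in Rab37 KO and 21.5% in WT were called higher, and 11.6% and 10.5% lower. The part of the cluster mix in these counts was not tested. Nor was that of the neutrophil and macrophage transcripts in tumor T-like cells, which were highest in WT tumor. Gbp7 had 93.2 CPM in Rab37 KO tumor against 33.9 in Rab37 KO normal lung (2.75; 1.93 to 3.83), and 134 CPM in WT tumor against 31.2 in WT normal lung (4.31; 2.73 to 6.52). Psmb9 had 164 against 109 CPM in Rab37 KO (1.5) and 210 against 107 CPM in WT (1.96).

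**Figure D5:**
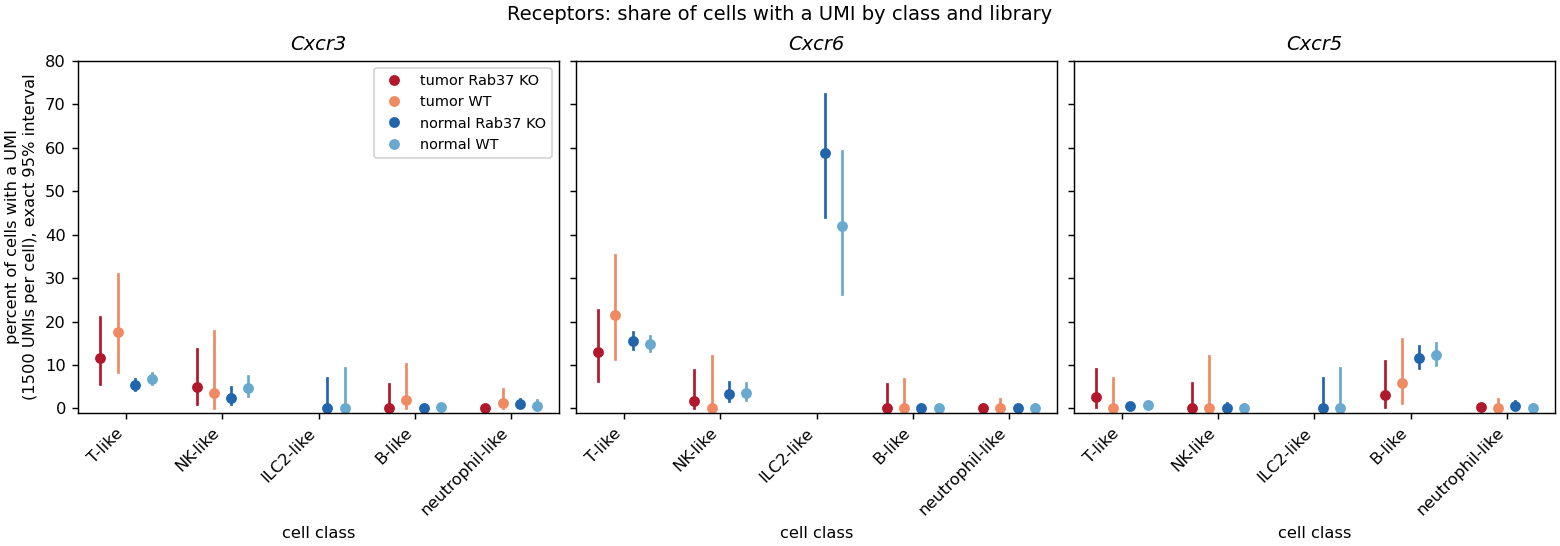
Percent of cells with a UMI of each receptor after each cell was thinned to 1500 UMIs, in 5 cell classes for the 4 libraries, with exact 95% Clopper-Pearson intervals as bars; classes of under 20 cells are left out. Cxcr3 in T-like cells is at 11.7% and 17.6% in the tumor libraries, above the normal lung values of 5.43% and 6.68%, Cxcr6 is highest in ILC2-like cells at 58.8% and 42.1%, and Cxcr5 is highest in B-like cells.

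Cxcr6 in T-like cells lay between 150 and 192 CPM in all 4 libraries. It was at 150 CPM in Rab37 KO tumor (66 UMIs in 20 cells), 156 in WT tumor (29 UMIs in 15 cells), 192 in Rab37 KO normal lung (1576 UMIs in 387 cells) and 165 in WT normal lung (1280 UMIs in 373 cells). The genotype ratio was 0.963 (0.613 to 1.55) in tumor and 1.17 (1.08 to 1.26) in normal lung, under the line in both. The tumor ratio was 2.02 with cells classed by their own markers, 0.552 after thinning and 0.530 with clusters weighted alike. Cxcr6 is a leading gene of some T-like clusters. Neutrophil-like background was at most 2.29 CPM.

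Within T-like cells Cxcr6 was far more uneven than Cxcr3. In normal lung, gamma-delta cells had 836 CPM in Rab37 KO (177 cells) and 661 in WT (131 cells), CD4 cells 124 and 114, and CD8 cells 37.6 and 39.9. T-like cells that no gate placed had 283 CPM in Rab37 KO (502 UMIs, 366 cells) and 271 in WT (624 UMIs, 522 cells). Foxp3-positive cells had 81.9 CPM in Rab37 KO (39 cells) and 0 UMIs in WT (37 cells, which allows up to 17.0 CPM). In tumors, CD8 cells had 124 CPM in Rab37 KO (23 UMIs, 31 cells) and 93.8 in WT (4 UMIs, 11 cells). After thinning, both receptors were seen in 0 of 77 T-like cells of Rab37 KO tumor, 3 of 51 of WT tumor, 24 of 1437 of Rab37 KO normal lung and 34 of 1573 of WT normal lung. In normal lung 54 Rab37 KO cells and 71 WT cells held Cxcr3 without Cxcr6, and 199 cells in each library held Cxcr6 without Cxcr3.

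ILC2-like cells, the type 2 innate lymphoid cells that lack an antigen receptor, had the highest Cxcr6 of any named class. They had 902 CPM in Rab37 KO normal lung (239 UMIs in 39 of 52 cells) and 539 in WT normal lung (100 UMIs in 29 of 38 cells), a ratio of 1.67 (1.32 to 2.14) in a class where 20.6% of 4291 genes were called higher. At equal depth 58.8% and 42.1% of cells held a UMI, with overlapping intervals. With Xist only the ratio was 1.25 and with Y only 1.56. The tumor libraries held 0 and 1 such cells. NK-like cells were lower, at 17.6, 36.8, 40.6 and 27.1 CPM in the 4 libraries from Rab37 KO tumor to WT normal lung.

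Cxcr5, the CXCL13 receptor, had its highest level in B-like cells. Their level was 67.9 CPM in Rab37 KO tumor (17 UMIs in 11 of 65 cells), 53.8 in WT tumor (10 UMIs in 8 of 55), 97.4 in Rab37 KO normal lung (296 UMIs in 209 of 648) and 85.2 in WT normal lung (235 UMIs in 172 of 688). B-like cells held 23.6% of the gene's 72 UMIs in Rab37 KO tumor, 71.4% of 14 in WT tumor, 79.8% in Rab37 KO normal lung and 74.1% in WT normal lung. In Rab37 KO tumor neutrophil-like cells, 48.3% of the library, held 43.1%, and cluster 4 held 23.6%. Rab37 KO over WT was 1.26 (0.549 to 3.08) in tumor and 1.14 (0.960 to 1.36) in normal lung. WT tumor over WT normal lung was 0.631 (0.299 to 1.18), called lower where 12.6% of 8779 genes were, but with an interval that holds 1. T-like cells had at most 6.18 CPM, in WT normal lung, where they held 48 UMIs (15.1% of the gene's UMIs) and neutrophil-like cells held 1. The neutrophil-like background was highest in Rab37 KO tumor, at 4.18 CPM (31 UMIs), where T-like cells held 2 UMIs.

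The follicular genes around Cxcr5 moved little in B-like cells of normal lung, with 0 of 8 called in either direction in Rab37 KO over WT, where 8.72% of 9737 genes were called higher and 6.56% lower. In tumor 2 of 7 were called higher and 1 lower, where 16.7% and 21.7% of 4854 genes were. In T-like cells of normal lung 3 of 10 were called higher and 1 lower, where 6.19% and 6.33% of 11431 genes were.

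Over whole libraries, where the number of cells of a type and the RNA per cell cannot be told apart, Cxcl13 and all 3 receptors were called lower in both tumor libraries than in the matching normal lung ones, where 31.8% of 15802 genes in Rab37 KO and 22.6% of 14652 in WT were called lower. Cell numbers moved with this: T-like cells were 2.86% of cells in Rab37 KO tumor, 8.07% in WT tumor, 31.0% in Rab37 KO normal lung and 31.2% in WT normal lung. Cxcr3 was at 3.73, 10.8, 16.9 and 17.0 CPM of all UMIs in those libraries. Of the 7 genes, Cxcl9 alone was called higher in tumor in both genotypes (17.8% of all genes in Rab37 KO and 19.4% in WT were), at 19.7 CPM in Rab37 KO tumor and 42.4 in WT tumor against 2.07 and 7.86 in normal lung.

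The genes whose levels most resembled each member were found over 47 sums of a class in a library, each of at least 20 cells, by Pearson correlation of log2(CPM + 10). These points share libraries and depth, so the values are descriptions. Closest to Cxcr5 was Pax5 (r = 0.965), to Cxcr6 Gata3 (0.935) and to Cxcl16 Cst3 (0.867). Cxcl13 was closest to Col14a1 (0.864), Cxcr3 to Tagap (0.795), Cxcl9 to Nxpe5 (0.740) and Cxcl10 to Abca9 (0.721), so the receptors and Cxcl16 had closer matches than the CXCR3 ligands.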

How the data were processed

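Single-cell 3′ libraries of sorted CD45+ cells were deposited by the authors as raw UMI counts per gene and barcode, in 1 matrix per library. Per the submitters' processing notes, the genome build is mm10. The software version was 3.1.0 for the tumor libraries and 3.0.1 for the normal lung libraries, per the file headers. Which aligner was used was not given in the sources used here. No column belonged to another sample.

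Barcodes passed with 200 genes or more and a mitochondrial share of no more than 10%, and Scrublet in scanpy 1.11.5 was used to remove doublets (4 in Rab37 KO tumor, 3 in WT tumor, 80 in Rab37 KO normal lung and 179 in WT normal lung). Cells were clustered with Leiden (2000 variable genes, 30 components, resolution 1), some clusters were clustered again, and each cluster was named "-like" from fixed markers. The margin of 0.5 between class scores, the check of 10 leading genes and the separation of Rhox5-led cells were set after the clusters were seen. Rebuilt names may differ from the authors' own. Median depth was 6556, 3979, 5486 and 5053 UMIs per cell in Rab37 KO tumor, WT tumor, Rab37 KO normal lung and WT normal lung.

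UMIs were summed by class and library and given as CPM with exact 95% Poisson intervals. Ratios had conditional binomial intervals and shares of cells Clopper-Pearson intervals after thinning to 1500 UMIs. All cover counting error only, and free RNA in droplets was not removed. A count of 0 was set to 3 UMIs per library in ratios, and no ratio is given where both libraries had 3 or fewer. The rule was run on simulated counts drawn with counting error only. That run cannot show how the rule fares with spread between cells or animals. A cell was called Xist only or Y only from its UMIs of Xist and of Y-linked genes.

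The members and lists were chosen with earlier results of these data known. List genes could be named, apart from some that are not reported here; those given with values were up to 4 measured genes with the largest ratio and at least 50 CPM, or are said to be lower. Positions are from GENCODE vM21 for mm10, in which 30934 of 31053 gene identifiers were found. Of the alternatives, 16 were planned and 5 were added after the data were seen: Xist-only cells, Y-only cells, leaving out cluster 5, pooling with cluster 4, and leaving out the 3 top cells.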

Additional observations from a re-analysis of the deposited data

Results flagged for a closer look

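Several ratios pointed in opposite directions in the 2 tissues or genotypes, with intervals that cover counting error only; none of these differences was tested across animals. In macrophage-like cells Cxcl10 in Rab37 KO over WT was 4.95 in tumor and 0.496 in normal lung. Cxcl9 in the same cells was 1.77 in tumor and 0.0691 in normal lung, with 1 WT normal lung cell holding 115 of 123 UMIs. Cxcl9 in cDC2-like cells was 2.39 in tumor, from 1 Rab37 KO cell, and 0.142 in normal lung. Cxcl10 in classical monocyte-like cells was 0.347 in Rab37 KO tumor over Rab37 KO normal lung and 3.35 in WT tumor over WT normal lung, where the WT tumor value came from 37 UMIs in 2 of 29 cells.

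Within normal lung, Rab37 KO over WT differed by the sex call of the cells, again untested. Cxcl10 in macrophage-like cells was 0.136 with Xist only and 1.93 with Y only. Cxcl13 in fibroblast-like cells was 0.0249 with Xist only and 16.5 with Y only, where 86 of the 90 Rab37 KO UMIs were in 1 cell.

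Signal also appeared in unnamed clusters that no comparison above used. Cxcl10 was at 74.4 CPM in cluster 16 of Rab37 KO tumor (269 UMIs, 44 cells) and at 76.4 CPM in the cycling cluster 13 of WT normal lung (114 UMIs, 82 cells). Cxcr5 was at 54.7 CPM in cluster 6.2 of WT normal lung, led by immunoglobulin genes beside monocyte genes.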

How the results depend on the processing

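No paired analysis was possible because each group had 1 library and the labels give no replicate numbers; no library could be left out within a group for the same reason. Over 518 alternative values of 35 ratios, 402 stayed within the first value's interval, 107 moved outside it and 9 changed direction; the cause was not tested. Of 96 list counts 77 stayed within 1.5 times and 19 did not, and of 28 shares thinned to 1000 UMIs 18 stayed within the interval and 10 did not. Intervals cover counting error alone, and the tumor receptor values rest on few UMIs.

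Values are Rab37 KO over WT unless said otherwise. A mitochondrial limit of 20% gave, in macrophage-like cells, 2.98 for Cxcl9 and 9.43 for Cxcl10 in tumor, 0.632 for Cxcl10 and 0.850 for Cxcl13 in normal lung, and 0.601 for Cxcl9 in WT tumor over WT normal lung. It gave 1.05 for Cxcr3 in T-like cells of Rab37 KO tumor over normal lung, also with doublets kept, and 2.72 for Cxcr6 in ILC2-like cells. At least 500 genes per cell gave Cxcl9 0.718 in tumor and 10.9 in Rab37 KO tumor over normal lung, Cxcl10 0.171 in alveolar macrophage-like cells and Cxcr6 1.04 in T-like cells of normal lung.

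Leiden resolution 0.5 gave, in macrophage-like cells, Cxcl9 1.10 in normal lung and 10.96 in WT tumor over normal lung, Cxcl10 10.8 in tumor, 0.00757 in WT tumor over normal lung and 0.151 in Rab37 KO tumor over normal lung, and Cxcl16 0.883 in tumor. Resolution 2 gave 0.656 for Cxcl10 and 0.871 for Cxcl13 in normal lung. Classing each cell by its own markers gave Cxcl9 0.914 and Cxcl16 0.894 in tumor, Cxcl10 0.398 in macrophage-like and 0.174 in alveolar macrophage-like cells of normal lung, and Cxcr6 2.02 in tumor and 0.937 in normal lung T-like cells.

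Averaging each cell's own CPM gave, in macrophage-like cells, Cxcl10 3.01 in tumor, 0.414 in normal lung and 0.222 in Rab37 KO tumor over normal lung, Cxcl16 0.948 in tumor and Cxcl13 0.682 in normal lung. Thinning to 1500 UMIs gave Cxcl9 2.63 and Cxcl10 3.17 in tumor, Cxcl10 0.0378 in WT tumor over normal lung and 0.0615 in alveolar macrophage-like cells, Cxcl13 0.690 in normal lung, and Cxcr6 0.552 in tumor and 1.33 in normal lung T-like cells. Weighting clusters alike gave Cxcl10 0.594 in normal lung and 0.0385 in WT tumor over normal lung, Cxcr3 0.872 in Rab37 KO tumor over normal lung, and Cxcr6 0.530 in tumor and 0.977 in normal lung. Leaving out cells with neutrophil markers gave Cxcl9 2.35 in tumor, and Cxcl10 0.413 and Cxcl13 0.874 in normal lung.

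Without the cell richest in the gene, Cxcl9 was 2.30 in tumor, 0.712 in normal lung and 9.48 in WT tumor over normal lung, and Cxcl10 was 0.211 in Rab37 KO tumor over normal lung and 0.115 in alveolar macrophage-like cells. Without the richest 3 cells, Cxcl10 was 0.0137 in WT and 0.170 in Rab37 KO tumor over normal lung and 0.0988 in alveolar macrophage-like cells, and Cxcl13 was 0.690 in normal lung. Pooling with cluster 4 gave Cxcl9 0.523 and Cxcl16 0.504 in tumor, and Cxcl9 8.13 in Rab37 KO tumor over normal lung. Without cluster 5, Cxcl10 was 0.627 in normal lung and 0.0385 in WT tumor over normal lung.

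In Xist-only cells Cxcl9 was 0.446 and Cxcl10 0.0156 in WT tumor over normal lung, and in normal lung Cxcl10 was 0.136 in macrophage-like and 0.0227 in alveolar macrophage-like cells, Cxcl16 1.65, Cxcl13 0.182, Cxcr3 1.11, Cxcr6 1.33 in T-like and 1.25 in ILC2-like cells, and Cxcr5 1.42. In Y-only cells Cxcl10 was 0.106 in Rab37 KO tumor over normal lung, and in normal lung Cxcl10 was 1.93 in macrophage-like, 1.24 in alveolar macrophage-like and 1.09 in fibroblast-like cells, Cxcl13 0.891 in macrophage-like and 16.5 in fibroblast-like cells, Cxcl16 1.00, Cxcr6 1.04 and Cxcr5 0.912.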

Other observations

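In Xist-only alveolar macrophage-like cells of normal lung, Cxcl10 was not the only transcript lower in Rab37 KO than in WT, although it was the lowest. These genes were picked after their values were seen and have no test. Of 3019 genes with at least 50 CPM, 47 were at least 1.5-fold lower in Rab37 KO. After Cxcl10 came the neutrophil chemokine gene Cxcl1, with 55.0 CPM in Rab37 KO and 281 in WT (ratio 0.195), the cytokine genes Il1a (37.6 and 182 CPM; 0.207) and Tnf (121 and 572 CPM; 0.211), Cxcl2 (690 and 3027 CPM; 0.228) and Nfkbiz, an NF-kB cofactor (55.6 and 229 CPM; 0.242), then Mt2, a metallothionein gene (0.267), and the chemokine gene Cxcl3 (0.287). The NF-kB inhibitor genes Tnfaip3 (0.327) and Nfkbia (0.371), which NF-kB itself induces, and the interferon-induced Irf1 (0.312) were lower too.

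In Y-only alveolar macrophage-like cells the ratios of the same genes lay between 0.587 and 1.69. They were 0.708 for Cxcl1, 0.587 for Il1a, 1.03 for Tnf, 1.04 for Cxcl2, 0.984 for Nfkbiz, 1.27 for Mt2, 1.69 for Cxcl3, 1.45 for Tnfaip3, 1.08 for Nfkbia and 1.08 for Irf1.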
